A study of Mus musculus with 12 samples.

Results

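The genes described here are 10 early response genes, chosen by symbol from the 23337 rows of a count table: 4 genes of the Fos family (Fos, Fosb, Fosl1 and Fosl2), 3 of the Jun family (Jun, Junb and Jund), and Egr1, Ier3 and Myc. All 10 had a row in the table, and all 10 passed the filter on low counts that left 12406 genes for testing. RNA was sequenced from NU1, an immortal line of normal mouse urothelial cells that arose by serial passaging, in 12 libraries that form 4 groups of 3. The groups were proliferating cells with the hairpin labelled shNT (control, genotype label WT), proliferating cells with the hairpin labelled sh4 against Stag2 (knockdown), and quiescent cells with each hairpin. Every group was grown with 15% chelated fetal bovine serum and 5 ng/ml EGF. Quiescent cultures grew to confluence and then received 1 µM rosiglitazone, an agonist of PPAR gamma, and 0.5 µM erlotinib, an inhibitor of the EGF receptor kinase, and were labelled day 7. Confluence and both drugs came together, so their parts in any difference between the states cannot be told apart. Each group has 1 library from each of experiments 5, 7 and 9, all from 1 cell line and with 1 hairpin per arm.

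Early response genes are switched on within minutes of a growth factor signal, without new protein synthesis, through kinases such as ERK that activate factors bound at their promoters. Fos and Jun proteins pair through leucine zippers to form AP-1, which binds the sequence TGANTCA, and Jun proteins can also pair with each other, whereas Fos proteins need a Jun partner. Egr1 is a zinc finger factor induced by serum and EGF, Ier3 is a small regulator of survival signalling, and Myc drives ribosome production and growth as a partner of Max. Most of these transcripts decay quickly, so a steady culture shows a balance of synthesis and decay.

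The stretches of promoter below are shown because the Fos and Jun genes carry different versions of the element bound by cyclic AMP response factors and by Jun and ATF pairs. RefSeq (GRCm38.p6) gave promoters for 7 of the 10 genes, all but Fosl1, Egr1 and Myc. Each stretch is the 130 bases before the RefSeq start on the strand of the gene, 5′ to 3′, and capitals mark TGACG, the core of that element, or TGACATCA, the form known from the Jun promoter. The stretches lie at chr12:85473760-85473889 (plus strand, Fos), chr4:95052223-95052352 (minus strand, Jun) and chr8:84978749-84978878 (minus strand, Junb).

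Fos: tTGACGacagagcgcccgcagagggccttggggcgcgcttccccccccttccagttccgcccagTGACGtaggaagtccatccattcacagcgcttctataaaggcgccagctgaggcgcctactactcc

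Jun: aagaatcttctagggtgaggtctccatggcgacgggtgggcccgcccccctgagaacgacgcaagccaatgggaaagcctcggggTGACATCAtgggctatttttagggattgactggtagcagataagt

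Junb: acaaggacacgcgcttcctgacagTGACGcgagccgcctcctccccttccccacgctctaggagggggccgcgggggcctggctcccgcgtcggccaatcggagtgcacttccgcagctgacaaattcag

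Exact matches were sought on both strands in the 250 bases before the start, with the same search over 32851 mouse promoters. TGACG began at positions -129 and -66 of Fos, -60 of Fosb and -106 of Junb, and 17.77% of all promoters held it. TGACATCA began at -45 of Jun and was found in 2.93% of promoters. GCGGGGGCG, a site of Egr proteins, began at -50 of Fosb and -79 of Fosl2, against 2.57% of promoters. The full element TGACGTCA (1.55% of promoters, and a palindrome that would also match TGACG), the AP-1 site TGANTCA (6.75%) and the E-box CACGTG of Myc and Max (6.02%) matched in none of the 7 windows. A match describes letters in a window and is not evidence of binding.

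Library totals ran from 14524429 to 21987539 counts, with 1 library of each group in every experiment. Stag2, a cohesin subunit and the target of the hairpin, went from 133 CPM ± 17.4 (counts per 1000000 of the library, SD, n = 3) in proliferating control cells to 27.6 CPM ± 4.96 (SD, n = 3) where the sh4 hairpin was present, while quiescent cells had 121 CPM ± 11.3 (SD, n = 3) with the control hairpin and 12.1 CPM ± 2.95 (SD, n = 3) with the other. Of 16 urothelial markers 13 were tested, and Krt7, Krt8, Krt18, Epcam and Cdh1, which other epithelia share, each averaged at least 456 CPM in every group. Group means ran from 134 to 395 CPM for Elf3, 28.0 to 77.3 for Gata3 and 20.8 to 53.7 for Foxa1. Upk1a, Upk1b, Upk2, Krt5, Grhl3 and Pparg averaged at most 6.12 CPM in every group. Trp63, a factor of basal urothelium, was at 0 counts, and Upk3a, a uroplakin of umbrella cells, had 1 count over the 12 libraries. Markers of fibroblasts and muscle summed to at most 2.33 CPM in any library, with Col1a2, Col3a1 and Lum at 0, and endothelial markers to at most 0.239 CPM. Of 6 immune markers, Emr1 and Cd3e were at 0 and Ptprc had 30 counts in all, while Csf1r brought their sum to between 110.3 and 169 CPM in quiescent knockdown cells against 39.6 to 61.8 in quiescent control cells, 26.2 to 55.3 in proliferating knockdown cells and 15.5 to 33.2 in proliferating control cells. Nothing in the labels says that the 3 experiments were separate thaws or clones, so the p-values measure the spread between these samples.

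The 10 genes covered a wide range of levels. Levels of different genes were compared as CPM per kilobase of exon, and the plot of levels by library gives each gene on its own CPM scale. In proliferating control cells Jund was the most abundant at 244 CPM per kilobase ± 41.1 (SD, n = 3), followed by Junb at 151 ± 28.8 (SD, n = 3), Ier3 at 76.7 ± 18 (SD, n = 3) and Myc at 61.9 ± 25.6 (SD, n = 3). The spreads of Ier3 and Myc overlapped. Fosl1 stood next at 23.8 ± 8.50 (SD, n = 3), before Fosl2 at 12 ± 0.876 (SD, n = 3). Jun at 8.77 ± 3.10 (SD, n = 3), Fos at 8.51 ± 2.98 (SD, n = 3) and Egr1 at 6.98 ± 2.73 (SD, n = 3) did not differ beyond their spreads, and Fosb was last at 0.502 ± 0.263 (SD, n = 3).

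**Figure D1:**
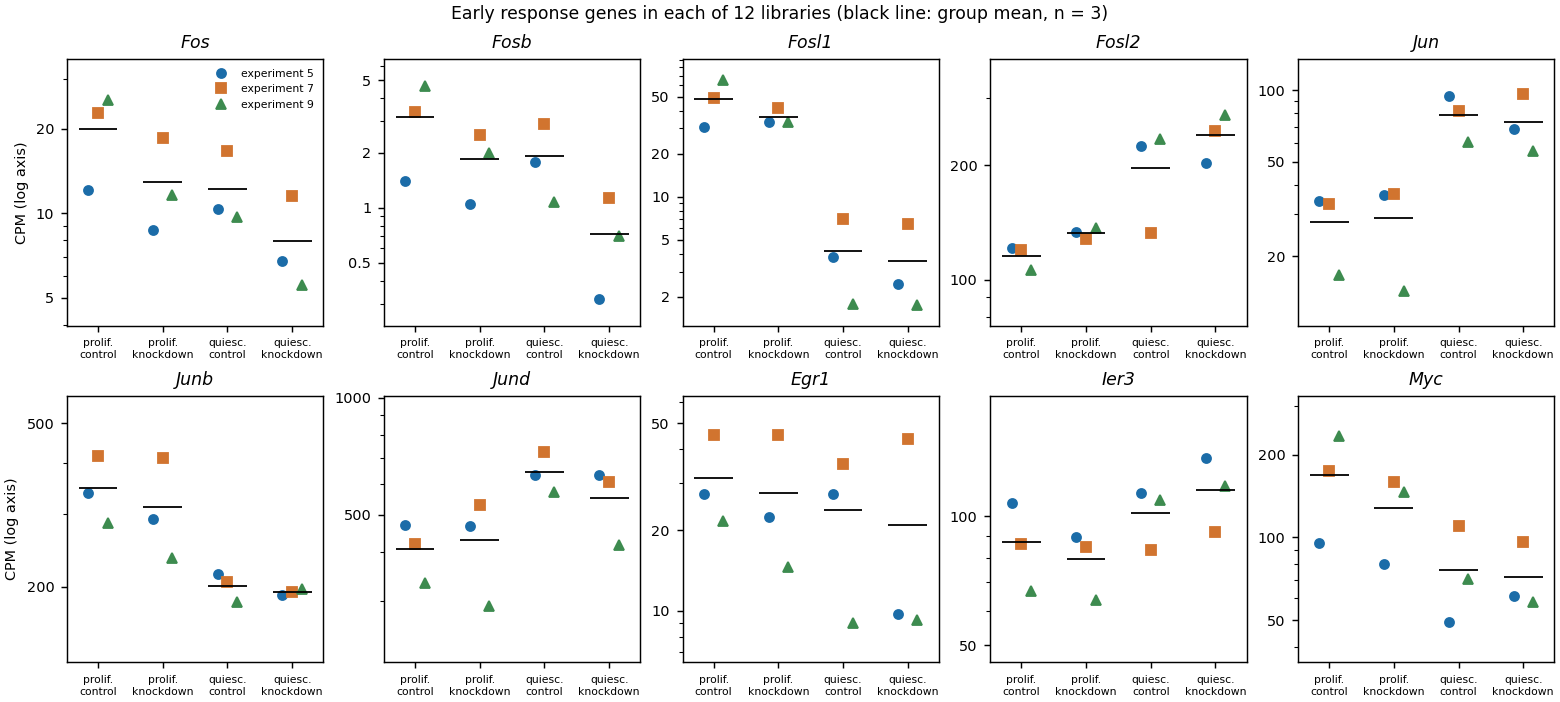
CPM of the 10 genes in each of the 12 libraries, on log axes, with 1 panel per gene, groups along the horizontal axis and symbols for experiments 5, 7 and 9; black lines are group means (n = 3). Fosl1 falls from between 30.8 and 65.4 CPM to between 1.79 and 6.97 CPM in control cells, and Egr1 is highest in experiment 7 and lowest in experiment 9 in each of the 4 groups.

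In quiescent control cells the order was different. Jund remained first at 385 CPM per kilobase ± 45.9 (SD, n = 3), and Ier3 at 90.1 ± 14.4 (SD, n = 3) and Junb at 87.4 ± 7.01 (SD, n = 3) overlapped. Myc at 28.1 ± 11.3 (SD, n = 3), Jun at 24.8 ± 5.37 (SD, n = 3) and Fosl2 at 20.3 ± 5.75 (SD, n = 3) formed a middle group with overlapping spreads. Egr1 at 5.32 ± 3.01 (SD, n = 3), Fos at 5.20 ± 1.63 (SD, n = 3) and Fosl1 at 2.06 ± 1.29 (SD, n = 3) stood below them, and Fosb was again last at 0.307 ± 0.145 (SD, n = 3). The first place of Jund in proliferating control cells rests on its annotated length, 1.668 kilobases in GENCODE and 2.878 in RefSeq, which sets the start 1210 bases upstream, whereas in quiescent control cells Jund is first with either length.

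Quiescence in control cells divided the AP-1 genes: Fosl1 and Junb fell, and Jun and Fosl2 rose. A gene was called when the adjusted p of edgeR's quasi-likelihood test (Benjamini-Hochberg over 12406 genes) was under 0.05. Of the 10 genes, 2 were called higher, against 8.33% of all tested genes, and 2 lower, against 11.7%. With a term for the experiment, which every group shares, 3 were called higher (16.8% of all genes) and 4 lower (18.5%), the additions being Jund, Fos and Myc. In bulk RNA, fewer cells that express a gene and less of its RNA per cell cannot be told apart, and levels are relative to each library's total, since the table used here holds 0 spike-in rows.

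Fosl1, whose protein Fra-1 is a Fos family member typical of growing epithelial cells under EGF, changed most. Its levels were 30.8, 49.0 and 65.4 CPM in proliferating control cells of experiments 5, 7 and 9, and 3.8, 6.97 and 1.79 CPM in quiescent ones. Every quiescent library lay below every proliferating one. edgeR put the difference at -3.53 ± 0.54 on the log2 scale (SE, adjusted p 0.00126), an 11.5-fold decrease, and within experiments the log2 difference was -2.98, -2.79 and -5.10. In knockdown cells the levels went from 33.0, 41.6 and 33.3 CPM to 2.45, 6.44 and 1.76 CPM, -3.35 ± 0.53 on the log2 scale (SE, edgeR adjusted p 0.00205). Fosl1 was called in both comparisons under each of the 18 alternative settings.

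Fosl2, which encodes the related Fra-2, moved the other way. Control cells had 122, 119.8 and 106 CPM while proliferating and 224, 133 and 233 CPM in quiescence, so that experiment 7 rose least but the groups did not overlap. This is a difference of 0.76 ± 0.19 on the log2 scale (SE, edgeR adjusted p 0.0178). In knockdown cells Fosl2 went from 133, 128 and 137 CPM to 202, 245 and 271 CPM, 0.85 ± 0.19 on the log2 scale (SE, edgeR adjusted p 0.0113). The call in control cells was lost when either of proliferating control 7 and 9 or quiescent control 5 and 9 was left out (edgeR adjusted p 0.0525, 0.0657, 0.0695 and 0.0686) and in a fit to the 6 control libraries alone (0.0625), and that in knockdown cells without quiescent knockdown 9 (0.0514). The rise itself was at least 0.62 on the log2 scale in each of these fits.

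Fos, the founding member, was lower in quiescence in each experiment but less evenly. Control cells had 12.1, 22.7 and 25.3 CPM while proliferating and 10.4, 16.6 and 9.72 CPM in quiescence, and the ranges overlapped. The fitted difference was -0.71 ± 0.38 on the log2 scale (SE, edgeR adjusted p 0.208), with differences of -0.22, -0.44 and -1.37 within experiments 5, 7 and 9. With the experiment term the value was -0.72 and the call was made (edgeR adjusted p 0.0385). In knockdown cells Fos went from 8.68, 18.5 and 11.6 CPM to 6.75, 11.5 and 5.57 CPM, -0.70 ± 0.38 on the log2 scale (SE, edgeR adjusted p 0.225).

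Fosb, the Fos family gene with the lowest counts here (7 to 82 per library), was not called in control cells. It had 1.4, 3.35 and 4.66 CPM in proliferating and 1.79, 2.88 and 1.07 CPM in quiescent control cells, with no common direction over the experiments (-0.71 ± 0.57 on the log2 scale, SE, edgeR adjusted p 0.405). Among knockdown cells it went from 1.05, 2.50 and 2.01 CPM to 0.317, 1.13 and 0.703 CPM, -1.38 ± 0.60 on the log2 scale (SE, edgeR adjusted p 0.135). That decrease was called with the experiment term (-1.4, edgeR adjusted p 0.0349).

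The Jun family was split in the same way. Jun, the partner that gives AP-1 its strongest activating form, had 34.2, 33.2 and 16.6 CPM in proliferating control cells and 94.3, 82.0 and 60.5 CPM in quiescent ones. The groups were far apart, and experiment 9 was lowest in both. edgeR put the difference at 1.5 ± 0.38 on the log2 scale (SE, adjusted p 0.0178), a 2.82-fold increase. In knockdown cells Jun went from 36.1, 36.6 and 14.2 CPM to 68.5, 96.8 and 55.7 CPM, 1.35 ± 0.37 on the log2 scale (SE, edgeR adjusted p 0.0297). Leaving out proliferating control 9 or quiescent control 5 ended the control call (edgeR adjusted p 0.0629 and 0.0591), and leaving out proliferating knockdown 9 or quiescent knockdown 5 or 7 ended the other (0.0669, 0.0661 and 0.0856). With the experiment term the adjusted p was 0.00019 in control and 0.000357 in knockdown cells (edgeR).

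Junb, often an antagonist of Jun in growth control, fell. It had 338, 417 and 286 CPM in proliferating and 214, 206 and 183 CPM in quiescent control cells, and the 3 quiescent values lay close together below all proliferating ones. This is a difference of -0.79 ± 0.20 on the log2 scale (SE, edgeR adjusted p 0.0167). In knockdown cells Junb went from 293, 411 and 235 CPM to 190.4, 194 and 197 CPM, -0.69 ± 0.20 on the log2 scale (SE, edgeR adjusted p 0.0317). The control call was lost without proliferating control 7 or quiescent control 9 (edgeR adjusted p 0.0742 and 0.0623). The knockdown call was lost without proliferating knockdown 7 (0.125, log2 fold change -0.45), without quiescent knockdown 5, 7 or 9 (0.0902, 0.0739 and 0.0898), and in a fit to the 6 knockdown libraries alone (0.0577).

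Jund, the family member known to be expressed in resting cells, had 469, 421 and 334 CPM in proliferating and 632, 723 and 571 CPM in quiescent control cells. All quiescent values exceeded all proliferating ones, yet the log2 fold change of 0.65 (SE 0.23) missed the threshold (edgeR adjusted p 0.0702). It was called with the experiment term (0.67, edgeR adjusted p 0.00356), by DESeq2 (adjusted p 0.0255), in a fit to the 6 control libraries alone (0.0471) and without proliferating knockdown 9 (0.0321). In knockdown cells Jund had 466, 528 and 291 CPM while proliferating and 630.4, 608 and 417 CPM in quiescence, where the ranges overlapped (0.36 ± 0.23 on the log2 scale, SE, edgeR adjusted p 0.303, and 0.0484 with the experiment term).

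**Figure D2:**
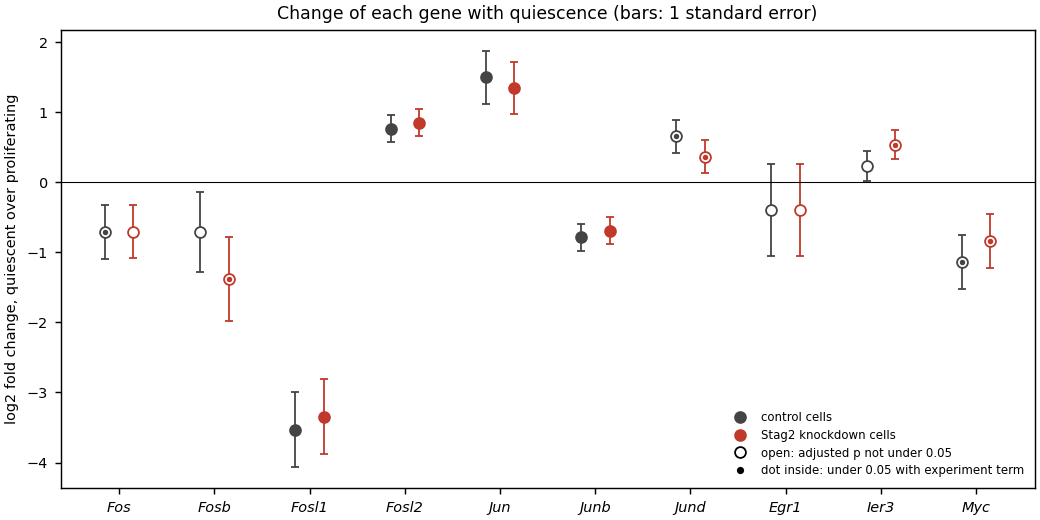
Log2 fold change of each gene with quiescence in control cells (dark) and Stag2 knockdown cells (red), with bars of 1 standard error from the edgeR fit; filled points have an adjusted p under 0.05, and a dot inside an open point marks an adjusted p under 0.05 with the experiment term. Fosl1 lies at -3.53 and -3.35, Jun at 1.5 and 1.35, and Egr1 at -0.39 and -0.40 with standard errors of 0.66.

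Egr1 had the largest standard error of the 3 genes outside the AP-1 families. Proliferating control cells had 27.3, 45.1 and 21.6 CPM and quiescent control cells 27.3, 35.3 and 9.00 CPM in experiments 5, 7 and 9, so the ranges of the 2 groups overlapped. Within those experiments the log2 difference was -0.00039, -0.35 and -1.25. The fitted difference was -0.39 ± 0.66 on the log2 scale (SE, edgeR adjusted p 0.713). In knockdown cells the levels were 22.4, 45.3 and 14.6 CPM and then 9.75, 43.7 and 9.26 CPM (-0.40 ± 0.66 on the log2 scale, SE, edgeR adjusted p 0.715), and without proliferating knockdown 7 the sign of that value turned to 0.17. The differences within experiments were -1.19, -0.05 and -0.65 there. The 95% interval of the control value, from the fitted spread, ran from -1.84 to 1.05. A 2-fold decrease, no change and a 2-fold increase all lie within it.

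Ier3, a target of EGF and NF-kappa B signalling, had 108, 85.9 and 66.9 CPM in proliferating and 113, 83.2 and 109 CPM in quiescent control cells. The groups overlapped, and the difference was 0.23 ± 0.21 on the log2 scale (SE, edgeR adjusted p 0.467). Knockdown cells had 89.5, 84.9 and 63.8 CPM and then 136, 92.0 and 118 CPM, with no overlap. There the difference was 0.54 ± 0.21 on the log2 scale (SE, edgeR adjusted p 0.0986), and it was called with the experiment term (edgeR adjusted p 0.0289).

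Myc had 95.6, 175 and 234 CPM in proliferating and 49.1, 109.6 and 70.3 CPM in quiescent control cells. It was lower in quiescence in each of the 3 experiments, by 0.96, 0.67 and 1.73 on the log2 scale, while the ranges of the groups overlapped because experiment 5 was low in both. The fitted difference, -1.14 ± 0.38 on the log2 scale (SE), just missed the threshold (edgeR adjusted p 0.0578). It was called with the experiment term (-1.15, edgeR adjusted p 0.00319), by DESeq2 (adjusted p 0.0147), and without proliferating control 5, proliferating knockdown 5 or quiescent control 7 (edgeR adjusted p 0.0190, 0.0463 and 0.0386). In knockdown cells Myc went from 80.1, 159 and 146 CPM to 61.2, 96.1 and 58.4 CPM, -0.84 ± 0.38 on the log2 scale (SE, edgeR adjusted p 0.152, and 0.0211 with the experiment term).

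In knockdown cells as a whole, the genes called with quiescence were again Fosl2 and Jun higher and Fosl1 and Junb lower, 2 in each direction. Over all tested genes 7.59% were called higher and 10.8% lower in these cells. With the experiment term 4 of the 10 were higher (Fosl2, Jun, Jund and Ier3), against 15.9% of all genes, and 4 lower (Fosb, Fosl1, Junb and Myc), against 17.2%. The 2 quiescence comparisons share no library, but they share the 3 experiments and 1 fit of all 12 libraries. Markers moved between the states too: the urothelial factors Gata3 (1.47, edgeR adjusted p 0.0263) and Elf3 (1.27, 0.0443) rose and the basal keratin gene Krt5 fell (-2.03, 0.0130) in control cells, while in knockdown cells Elf3 (1.37, edgeR adjusted p 0.0352) and the macrophage receptor gene Csf1r (1.81, 0.0110) rose, and Krt5 (-1.45, 0.0477) and Epcam (-0.65, 0.0406) fell. Their part in the changes of the 10 genes was not tested.

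These opposite movements changed the make-up of the AP-1 families at the level of RNA. In proliferating control cells Fosl1 made up 52.1% ± 6.54 (SD, n = 3) of the summed CPM per kilobase of the 4 Fos family genes, and Fosl2 28.2% ± 9.07 (SD, n = 3). In quiescent control cells Fosl1 made up 7.73% ± 5.60 (SD, n = 3) and Fosl2 71.9% ± 14.4 (SD, n = 3). Per kilobase, Fosl2 was the leading Fos family transcript in each of the 6 quiescent libraries, with between 55.5% and 89.3%, and Fosl1 in each of the 6 proliferating ones, with between 45.8% and 58.9%. The lead of Fosl1 rests on the exon length of Fosl2, 9.68 kilobases against 2.033 for Fosl1: as shares of raw counts, Fosl1 had 25.4% and Fosl2 62.5% in proliferating control cells, and 19.6% and 72.4% in proliferating knockdown cells. Fosl2 then led in all 4 group means, with 90.5% in quiescent control and 95.1% in quiescent knockdown cells. The share of Fos itself was 18.6% ± 2.74 (SD, n = 3) and 19.2% ± 8.22 (SD, n = 3) in control cells, and that of Fosb was at most 1.87% in every library. The summed level of the family was 44.8 CPM per kilobase ± 10.9 (SD, n = 3) in proliferating and 27.9 ± 2.79 (SD, n = 3) in quiescent control cells. That lower sum rests on the exon length of Fosl2 as well. In mean CPM, without division by length, Fosl2 rose from 116 to 197 and Fosl1 fell from 48.4 to 4.19 in control cells. In these means the rise of Fosl2 outweighed the decreases of the other family genes, but within experiment 7 it did not. The direction of the family total therefore depends on the division by length.

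In the Jun family Junb went from 37.3% ± 3.68 (SD, n = 3) to 17.6% ± 1.2 (SD, n = 3) in control cells, and from 34.0% ± 3.12 (SD, n = 3) to 19.7% ± 3.98 (SD, n = 3) in knockdown cells. Jund went from 60.5% ± 3.62 (SD, n = 3) to 77.4% ± 1.76 (SD, n = 3), and Jun from 2.12% ± 0.472 (SD, n = 3) to 4.97% ± 0.832 (SD, n = 3), in control cells. With the longer RefSeq length of Jund, a setting added after the data were seen, Junb was at 50.03% and Jund at 47.1% in proliferating control cells, and 26.1% and 66.5% in quiescent ones. Which of them led in proliferating control cells therefore depends on that length, and the lower share of Junb in quiescence does not. The 3 Jun family genes together made up between 85.8% and 95.7% of the RNA of the 7 AP-1 genes per kilobase in every library. As shares of raw counts, their group means were lower, at 80.4% in proliferating control and 80.0% in proliferating knockdown cells. In quiescence these were 81.0% in control and 76.2% in knockdown cells.

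**Figure D3:**
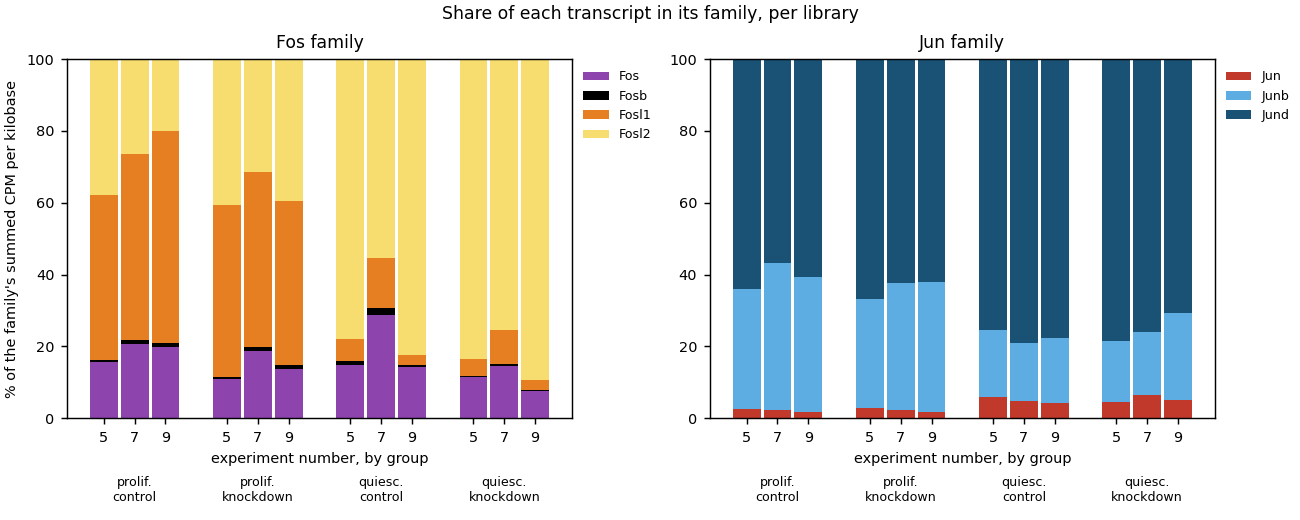
Share of each transcript in the summed CPM per kilobase of the 4 Fos family genes (left) and the 3 Jun family genes (right), 1 bar per library, labelled by experiment within the 4 groups. Fosl1 (orange) takes between 45.8% and 58.9% of the Fos family in proliferating libraries and between 2.76% and 13.9% in quiescent ones, where Fosl2 (yellow) takes between 55.5% and 89.3%; as shares of raw counts, without division by length, Fosl2 leads in proliferating control cells as well (62.5% against 25.4%).

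Knockdown of Stag2, the comparison the study was built for, changed none of the 10 genes past the threshold in either state. In proliferating cells 0.0242% of all tested genes (3 of 12406) were called, and 0 of the 10, by edgeR without and with the experiment term, where again 0.0242% of all genes were called. At an unadjusted p under 0.05, 0 of the 10 passed without and 1 with that term, and DESeq2 called 0. In quiescent cells 0.435% of all genes were called, and 0 of the 10. With the experiment term 3.55% of all genes were called, and still 0 of the 10, while at an unadjusted p under 0.05 there was 1 gene without and 2 with the term, and 0 by DESeq2's adjusted p.

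Fos had the same size of difference in both states. It stood at 72.0%, 81.4% and 46.1% of the control level in proliferating cells of experiments 5, 7 and 9, and at 65.3%, 69.2% and 57.3% in quiescent cells, lower each time. edgeR put the difference at -0.63 ± 0.38 on the log2 scale (SE, adjusted p 0.9998) and -0.63 (SE 0.38, edgeR adjusted p 0.584). The 95% intervals, -1.46 to 0.20 and -1.47 to 0.22, include no change as well as a decrease of more than 2-fold.

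Fosb had the largest difference of the 10 in both states. It stood at 74.8%, 74.7% and 43.1% of control in proliferating cells, and at 17.7%, 39.4% and 65.5% in quiescent cells. This is a difference of -0.76 ± 0.57 on the log2 scale (SE, edgeR adjusted p 0.9998) and -1.42 (SE 0.60, edgeR adjusted p 0.382, and 0.0910 with the experiment term). The quiescent knockdown value rests on 7, 19 and 12 counts, against 26, 47 and 18 in quiescent control cells.

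The remaining genes were closer to 0. Fosl1 had log2 fold changes of -0.43 (SE 0.47) in proliferating and -0.25 (SE 0.53) in quiescent cells, Myc of -0.39 (SE 0.38) and -0.09 (SE 0.38), and Egr1 of -0.19 (SE 0.66) and -0.19 (SE 0.66). Fosl2 was at 0.20 (SE 0.19) and 0.28 (SE 0.19), Jun at 0.05 (SE 0.37) and -0.10 (SE 0.37), Junb at -0.15 (SE 0.19) and -0.05 (SE 0.19), Jund at 0.07 (SE 0.23) and -0.22 (SE 0.23), and Ier3 at -0.13 (SE 0.21) and 0.18 (SE 0.21). The narrowest interval in quiescent cells was that of Fosl2, with 95% bounds of -0.13 and 0.70, and the widest that of Egr1, with -1.65 and 1.26. The interval of Fosl2 leaves room for an increase rather than a decrease, and that of Egr1 for large changes in either direction.

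Within experiments, 5 of the 10 (Fos, Fosb, Junb, Ier3 and Myc) were lower with the hairpin in all 3 experiments of proliferating cells, as were 21.3% of all tested genes, and 1 (Fosl2) was higher in all 3, as were 19.8%. In quiescent cells 4 (Fos, Fosb, Fosl1 and Jund) were lower in all 3, as were 21.3% of all genes, and 1 (Ier3) was higher, as were 25.4%. Fos and Fosb were the members lower in all 6 pairs. The knockdown and quiescence comparisons share libraries, so their values are given side by side and not set against each other.

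**Figure D4:**
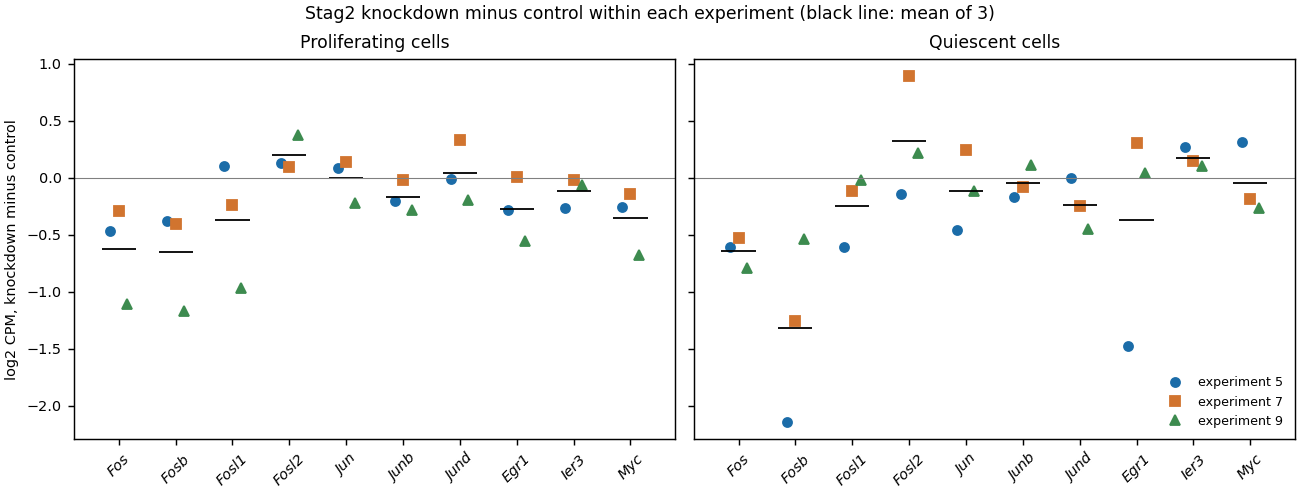
Difference in log2 CPM, Stag2 knockdown minus control, within each experiment for the 10 genes in proliferating (left) and quiescent (right) cells; symbols are experiments and black lines the mean of 3. Fos lies below 0 in all 6 pairs, and Egr1 in quiescent cells ranges from -1.47 in experiment 5 to 0.31 in experiment 7.

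Whether the knockdown difference itself differed between the states was tested by the interaction. None of the 10 was called, and 0% of all 12406 genes (edgeR adjusted p 0.9997 for each of the 10), with 0 of the 10 at an unadjusted p under 0.05 and 0 by DESeq2. The difference was -0.67 (SE 0.82) on the log2 scale for Fosb, 0.31 (SE 0.30) for Ier3, 0.30 (SE 0.54) for Myc and -0.29 (SE 0.33) for Jund, and the other 6 lay between -0.15 and 0.18. Standard errors from 0.27 to 0.93 mean that differences of moderate size were not detectable with 3 libraries a group.

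The experiments left a mark of their own on these genes. Egr1 was highest in experiment 7 and lowest in experiment 9 in each of the 4 groups, with a ratio of highest to lowest between 2.09 and 4.72. Fos, Fosl1, Fosb and Myc were highest in experiment 7 in 3 of the 4 groups, and in experiment 9 among proliferating control cells. Jun was lowest in experiment 9 in all 4 groups, and Ier3 was highest in experiment 5 in all 4. What differed between the experiments besides their batch number was not tested.

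Deviations from the group means give the same picture for pairs of genes. Over the 12 libraries, which share 3 experiments, the Pearson r of these deviations was 0.90 between Fos and Myc, 0.85 between Fos and Fosb, 0.83 between Fos and Fosl1, and 0.66 between Fos and Egr1. It was -0.84 between Ier3 and Myc, -0.82 between Fosb and Ier3, and -0.49 between Fosl2 and Myc. Between Jun and Jund it was 0.88, and between Fos and Jun 0.09. The genes whose log2 CPM most resembled that of Myc over the 12 libraries, among 10300 genes whose mean log2 CPM reached 2, were Ppan, Ddx21, Tsr1, Wdr75 and Nop56, with r from 0.980 to 0.985. Those most like Egr1 were Sfrs18, Akap8, Zfp317, Cdc23 and Zfp26, with lower values of 0.908 to 0.927. State and experiment are shared by all genes of a library, so these values describe the 12 libraries and carry no test.

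Other early response genes were then described from a list of 45, of which 41 were tested and Egr2 (35 counts in all), Egr4, Nr4a3 and Npas4 were too low. In quiescent control cells 3 were called higher and 2 lower, shares no larger than the 8.33% and 11.7% of all genes. Those that rose were Dusp1, a phosphatase of MAP kinases (44.7 CPM ± 13.0 to 120.0 CPM ± 44.3, SD, n = 3, log2 fold change 1.43, edgeR adjusted p 0.0422), Btg2, an anti-proliferative gene (0.82, edgeR adjusted p 0.0271), and Plk2, a kinase (0.50, edgeR adjusted p 0.0389). Klf10, a zinc finger gene induced by TGF-beta, fell (-0.59, edgeR adjusted p 0.0495), as did Egr3 (-3.00, edgeR adjusted p 0.0348) from 0.723 CPM. The median log2 fold change of the list was 0.12, against 0.00 over all genes, and with the experiment term 10 were higher and 3 lower (16.8% and 18.5% of all genes). In knockdown cells 5 rose, among them Dusp1 (1.45), the nuclear receptor Nr4a1 (1.38) and Arc (1.24), and 4 fell, among them Egr3 (-3.49), Maff (-0.99) and Klf10 (-0.61). Among all tested genes 7.59% rose and 10.8% fell there. Knockdown itself called 0 of the 41 in either state. With the experiment term it called 4 higher in quiescent cells, against 197 of all 12406 tested genes.

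Of 12 partners of AP-1 (ATF, BATF, JDP and MAF genes) 9 were tested, and in control cells Batf3 alone was called, 1 of 9 lower against 11.7% of all genes, with 1.2 CPM ± 0.418 (SD, n = 3) in proliferating and 0.110 CPM ± 0.104 (SD, n = 3) in quiescent cells (log2 fold change -3.40, edgeR adjusted p 0.00762). Of the kinases and factors upstream, 26 genes from the Ras proteins to Srf, Elk1 and Creb1, 1 was called with quiescence in control cells: Nras, which fell by 0.48 on the log2 scale (edgeR adjusted p 0.0057). In knockdown cells Map2k4, the kinase that activates JNK (-0.64), and Nras (-0.31) fell with quiescence. When the experiment was in the model, 2 of the 26 were higher and 2 lower in control cells, and 1 higher and 5 lower in knockdown cells, where 2 of the 9 partners were then higher and 2 lower. That model called 16.8% of all genes higher and 18.5% lower in control cells, and 15.9% and 17.2% in knockdown cells. Map2k4 was also the one listed gene called for the knockdown, in quiescent cells, from 110.2 CPM to 54.8 CPM (-1.01 ± 0.18 on the log2 scale, SE, edgeR adjusted p 0.0360). The RNA of Jun differed between those groups by -0.10 (SE 0.37). JNK phosphorylates the Jun protein, which RNA counts do not measure, and a link to Map2k4 was not tested.

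Known targets of AP-1 were mostly lower in quiescence. Of 18 such genes 13 were tested, and 8 fell and 0 rose in control cells, against 11.7% and 8.33% of all genes. Their median log2 fold change was -1.26, against 0.00 for all genes. Those that fell included the protease inhibitor Timp1 (12.1 CPM ± 5.21 to 1.12 CPM ± 0.254, SD, n = 3, log2 fold change -3.43, edgeR adjusted p 0.000316), the chromatin protein Hmga1 (-2.04), the hyaluronan receptor Cd44 (-1.99), cyclin D1, encoded by Ccnd1 (-1.80), and urokinase, encoded by Plau (-1.45). Mmp9, a matrix protease, was below 2 CPM on average in every group and at 0 counts in quiescent knockdown cells. In knockdown cells 7 of the 13 fell and 0 rose, against 10.8% and 7.59% of all genes, with a median of -1.06. In the fit by experiment 9 fell and 1 rose in control cells (18.5% and 16.8% of all genes). There 7 fell and 1 rose in knockdown cells (17.2% and 15.9%). Several of these genes answer to other factors as well, and their link to AP-1 in these cells was not tested.

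Most of the listed Myc targets fell in quiescent control cells. Of 29 listed genes of ribosome production, nucleotide synthesis and growth, 20 fell and 1 rose, against 11.7% and 8.33% of all genes. The median was -0.91, against 0.00 for all genes. With the experiment term 27 fell, against 18.5% of all genes. The largest decreases were those of the transferrin receptor gene Tfrc (74.0 CPM ± 36.6 to 15.2 CPM ± 2.34, SD, n = 3, log2 fold change -2.28, edgeR adjusted p 0.00077), the dyskerin gene Dkc1 (-1.83, edgeR adjusted p 0.00372) and Cad, a pyrimidine synthesis gene (-1.48, edgeR adjusted p 0.0154). Ccnd2, the gene of cyclin D2, rose (0.80, edgeR adjusted p 0.0386). In knockdown cells 12 fell and 1 rose (10.8% and 7.59% of all genes), with a median of -0.72. There 21 fell with the experiment term, against 17.2% of all genes. The knockdown called 0 of the 29 in either state, with medians of -0.24 in proliferating and 0.01 in quiescent cells.

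Partners and rivals of Myc were called at shares near those of all genes (8.33% higher and 11.7% lower). Of 13 genes of the Max network, Mnt, a repressor that pairs with Max, rose in quiescent control cells (0.30, edgeR adjusted p 0.0481), and Mxd3, a relative active in dividing cells, fell (-3.36, edgeR adjusted p 0.00602) from 1.14 CPM. Max itself was at 0.11 (edgeR adjusted p 0.604). In knockdown cells Mxd3 (-1.91) and Mxd1 (-1.12) fell. The experiment term gave 2 higher and 2 lower of the 13 in control cells, and 1 lower for the knockdown in quiescent cells. Of the Egr partners, Nab1 and Nab2, corepressors of Egr1, were at -0.18 and -0.34 in control cells and not called.

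**Figure D5:**
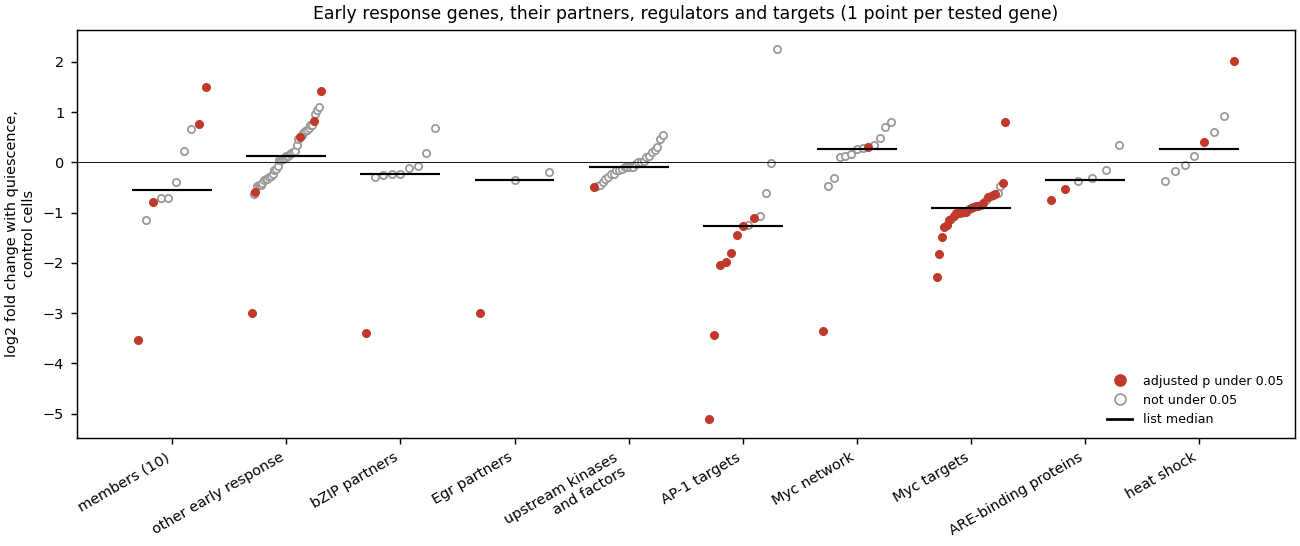
Log2 fold change with quiescence in control cells for each tested gene, in 10 columns: the 10 genes described here and 9 lists of related genes, with filled points for an edgeR adjusted p under 0.05 and black lines for list medians. The AP-1 targets have a median of -1.26 and the Myc targets of -0.91, whereas the other early response genes have a median of 0.12; Egr3, Maff and a few others appear in more than 1 list.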

How the data were processed

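The deposited table holds raw read counts, 1 column for each of the 12 libraries, to which the authors applied no scaling. Per the submitters' processing notes, Bowtie, TopHat, HTSeq and DESeq2 were used with build mm10. Versions, annotation and whether counting used strand are not given in the sources used here, so reads of overlapping or antisense genes cannot be separated. Per the labels' protocols, the libraries came from polyadenylated RNA with a stranded kit. The number of value columns left unused was 0.

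The tests ran in R 4.3.3 under edgeR 4.0.16. filterByExpr with a minimum count of 10 kept 12406 genes. TMM gave the library sizes, and a model of 4 group means over the 12 libraries was fitted and tested (glmQLFit, glmQLFTest), with p-values adjusted by Benjamini-Hochberg over all tested genes and a threshold of 0.05. A standard error is the log2 fold change divided by the square root of F, and 95% intervals use the t distribution with the fit's degrees of freedom. CPM uses the scaled totals, log2 CPM a prior count of 2, and CPM per kilobase the union of exons in GENCODE M21, found for 98.2% of rows. Recovery of known changes was tested on simulated data. No 2 replicates held identical values, and the chi-square per degree of freedom between them was 38.4 to 105, so each was kept. Rows with 0 counts in every library numbered 5762. PCR copies are not independent molecules, so counting error understates the true error.

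The experiment number in the labels equals the batch and pairs libraries across groups. Deviations from the group means correlated between libraries with the same number (mean r 0.526 over 18 pairs, 0.225 to 0.789). The mean r was -0.259 over 36 pairs with different numbers. Deviations within a group of 3 cancel, which makes this mean negative when the other is positive, so it is not separate evidence. The fit with this replicate block is an alternative, as are DESeq2 1.42.0, median-of-ratios size factors, no filter, a filter at a mean count of 50, a fit restricted to one contrast's libraries, and leaving out each library. The members, the 9 lists (154 genes) and the markers were chosen with earlier results of these data known. All 10 members are named, and from each list at most 3 called genes per direction, those with the largest change, and some results are not reported here. Cd44, Ccnd1, Plau, Max, Nab1 and Nab2 were named after their values were seen. Hras, Mycl and Adgre1 were matched by the older symbols Hras1, Mycl1 and Emr1.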

Additional observations from a re-analysis of the deposited data

How the results depend on the processing

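Fosl1 was called in both quiescence comparisons under all 18 alternatives. Counts of all genes called moved over 1.5 times with the replicate block (4374 for quiescence in control and 4096 in knockdown cells, and 440 for the knockdown in quiescent cells), with a fit to the libraries of 1 contrast (1582 for quiescence in control cells and 1 for the knockdown in proliferating cells) and with DESeq2 (12 and 390 for the knockdown in proliferating and quiescent cells, and 6 for the interaction). The block also moved the members called lower to 4 in control cells, and those called higher and lower to 4 and 4 in knockdown cells, while the contrast's own libraries left 1 lower. The interaction of Fos turned to -0.0075 without a filter and -5.31e-05 at a mean count of at least 50, and that of Egr1 to 0.0058 with DESeq2 and 0.0039 with other size factors, all far within their errors. Leaving out 1 library at a time gave between 1394 and 3078 genes for quiescence in control cells, with 0 to 3 members higher and 1 to 3 lower, and between 1186 and 2408 in knockdown cells, with 1 to 2 members higher and 1 to 2 lower. The counts for the knockdown were 1 to 3 genes in proliferating and 5 to 64 in quiescent cells. In the same fits these small differences took both signs: quiescence in knockdown cells for Egr1 (-1.52 to 0.17); the knockdown in proliferating cells for Jun (-0.22 to 0.37), Junb (-0.40 to 0.0153), Jund (-0.11 to 0.28), Egr1 (-0.76 to 0.17) and Ier3 (-0.29 to 0.0556); the knockdown in quiescent cells for Fosl1 (-0.98 to 0.34), Jun (-0.34 to 0.0657), Egr1 (-1.32 to 0.20) and Myc (-0.35 to 0.26); and the interaction for Fos (-0.35 to 0.35), Fosl1 (-0.55 to 0.77), Fosl2 (-0.13 to 0.23), Jun (-0.48 to 0.12), Junb (-0.0754 to 0.34), Egr1 (-1.13 to 0.56) and Myc (-0.0126 to 0.65). The cause was not tested in any of these cases, beyond the smaller number of libraries. With the other size factors the median log2 fold change of all genes moved by at most 0.01, and shares within a family do not depend on them. Fosb gives no value at a mean count of at least 50, and a fit to the libraries of 1 contrast was not run for the interaction, which needs all 4 groups. Depth limits Fosb most, with 7 to 82 counts in a library.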

Other observations

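Proteins that bind messages with AU-rich elements, which many early response transcripts carry, were listed as 6 genes, of which Elavl1 encodes HuR, known to stabilise such messages, and the others proteins known to act in their decay. In quiescent control cells 2 fell and 0 rose, against 11.7% and 8.33% of all genes. Those that fell were Hnrnpd, which encodes the protein AUF1 (142 CPM ± 17.9 to 84.9 CPM ± 1.2, SD, n = 3, log2 fold change -0.75, edgeR adjusted p 0.0165), and Zfp36l2, a relative of tristetraprolin (-0.54, edgeR adjusted p 0.0125). The same 2 genes fell in knockdown cells, by 0.58 and 0.41 on the log2 scale (edgeR adjusted p 0.0477 and 0.0443), where 10.8% of all genes fell. Zfp36, the gene of tristetraprolin and itself an early response gene, was at 0.35 in control cells (edgeR adjusted p 0.349). When the fit had a term for the experiment, 4 of the 6 fell in control and 3 in knockdown cells, against 18.5% and 17.2% of all genes.

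Of 8 heat shock genes, which respond to handling as well as to protein damage, 2 rose in quiescent control cells and 0 fell. Among all tested genes 8.33% rose and 11.7% fell. Hspb1, a small heat shock protein gene that is also expressed in differentiated epithelium, rose from 48.6 CPM ± 10.7 to 197 CPM ± 75.5 (SD, n = 3, log2 fold change 2.02, edgeR adjusted p 0.000446), and Bag3 rose by 0.41 on the log2 scale (edgeR adjusted p 0.0263). The inducible Hspa1a and Hspa1b were low, at 3.92 and 17.3 CPM in proliferating and 7.44 and 26.3 CPM in quiescent control cells on average. In the fit with that term 3 of the 8 were higher in control cells, against 16.8% of all genes.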
